A study of Mus musculus with 6 samples.

Results

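The 10 genes described here are the Toll-like receptor genes Tlr1 to Tlr9 and Myd88, the adaptor gene that most of them depend on, measured in mouse bone marrow. They were taken by name from the spike-in normalized table of 17173 genes, and all 10 were found in it. The study compared marrow from mice modelling multiple myeloma, a malignancy of plasma cells, in 3 libraries labelled Che-1 silencing and 3 labelled control. Aatf encodes Che-1, a nuclear protein that binds RNA polymerase II. All 6 libraries carry the same source label, VkCHE mice, and differ in the genotype label, Che-1 silencing or control. The labels used here give no age, strain background, silencing construct, promoter or cell type of silencing. They also do not say whether the triplicates came from separate animals, so part of the spread among the libraries may be technical. The p-values rest on that spread, which the main test on spike-in normalized counts pooled fully over genes of similar level.

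Toll-like receptors are membrane proteins of innate immune cells that bind molecules typical of microbes. Receptors at the cell surface, abundant on monocytes, macrophages and neutrophils, bind bacterial lipids and proteins, whereas receptors inside endosomes, abundant in B cells and dendritic cells, bind nucleic acids. Most of them recruit the adaptor protein Myd88, which assembles kinases of the Irak family and leads to NF-kB activity and cytokine expression, while Tlr3 signals through the adaptor Ticam1 and Tlr4 through both.

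Promoter sequence was examined for 8 of the 10 genes, all except Tlr4 and Tlr7, with entries in the RefSeq promoter set of build GRCm38.p6. The 250 bases before the gene start were searched on both strands for 3 short motifs of factors active in marrow cells. They were the core GAGGAA bound by PU.1, a factor of myeloid and B cells, the interferon response element GAAANNGAAA, and the octamer ATGCAAAT bound by the Oct factors of B cells. The 4 promoters below are shown because they hold the interferon response element or the octamer, or belong to an endosomal receptor with the PU.1 core, and capitals mark the matches on either strand.
Tlr9: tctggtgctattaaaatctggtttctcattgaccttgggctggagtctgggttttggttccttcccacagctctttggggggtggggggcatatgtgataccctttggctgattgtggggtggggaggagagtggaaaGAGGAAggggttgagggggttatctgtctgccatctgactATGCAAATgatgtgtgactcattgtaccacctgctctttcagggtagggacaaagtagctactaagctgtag
Tlr8: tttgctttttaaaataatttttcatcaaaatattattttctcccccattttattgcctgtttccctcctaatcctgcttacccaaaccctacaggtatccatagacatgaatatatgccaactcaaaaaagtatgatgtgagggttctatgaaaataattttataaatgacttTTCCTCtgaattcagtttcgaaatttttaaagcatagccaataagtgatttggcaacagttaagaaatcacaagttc
Tlr6: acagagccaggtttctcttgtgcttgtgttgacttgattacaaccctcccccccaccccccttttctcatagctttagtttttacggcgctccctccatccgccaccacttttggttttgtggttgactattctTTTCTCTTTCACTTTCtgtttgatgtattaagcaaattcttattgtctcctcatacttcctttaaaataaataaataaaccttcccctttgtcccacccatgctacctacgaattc
Myd88: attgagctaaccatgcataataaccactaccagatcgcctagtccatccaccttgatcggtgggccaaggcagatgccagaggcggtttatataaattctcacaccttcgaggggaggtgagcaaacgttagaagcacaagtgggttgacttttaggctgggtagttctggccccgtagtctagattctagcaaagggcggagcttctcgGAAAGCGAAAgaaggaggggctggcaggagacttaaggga
The Tlr9 window (chr9:106222348-106222597, plus strand) holds a PU.1 core and the octamer. The Tlr8 window (chrX:167264330-167264579, minus strand) holds 1 PU.1 core, read on the other strand. The Tlr6 window (chr5:64959167-64959416, minus strand) holds 2 overlapping interferon response elements on the other strand, and Tlr6 has a second entry without a match. The Myd88 window (chr9:119340019-119340268, minus strand) holds 1 interferon response element. The 8 genes had 10 promoter entries. The PU.1 core was in 3 of these 10, of Tlr1, Tlr8 and Tlr9, against 22.2% of all 21263 protein-coding promoters searched. Tlr1 also has a second entry without a match. The interferon response element was in 2 of the 10, of Tlr6 and Myd88, against 2.96%, and the octamer in 1, of Tlr9, against 1.58%. A match of letters is a description and not evidence of binding.

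Levels are given as normalized counts, which are reads divided by a size factor from synthetic ERCC spike-in RNAs (the spike-in scale), and as log2 levels above the median gene of the same library (the relative scale). Recovered gene reads ran between 14373200 and 24899535 in the Che-1 silencing-labelled libraries and between 11317166 and 17809057 in the control libraries. Each of the 10 genes had at least 42 and at most 1941 reads in every library. The median gene itself stood higher against the spike-ins in every Che-1 silencing-labelled library, at log2 levels of 9.65, 10.38 and 9.10, than in any control library, at 8.60, 7.89 and 8.05. Aatf, the targeted gene, was not lower in the Che-1 silencing-labelled libraries, with 1986, 3808 and 1223 normalized counts, while the control libraries had 896, 396 and 421, so group names below follow the labels. Libraries also differed within groups. Replicate 3 labelled Che-1 silencing differed from replicates 1 and 2 by a mean chi-square per gene of 164 and 126, while those differed from each other by 17.0. Control replicate 1 differed from control replicates 2 and 3 by 48.9 and 52.1, while control replicates 2 and 3 differed by 2.13, with a median of 0.631 where sampling noise alone gives 0.455. The sexes of the groups also differed. In the authors' deposited table Xist, expressed from the inactive X chromosome of females, had a mean of 68685 in the Che-1 silencing group and 5.64 in the control group, and the Y-linked gene Ddx3y had 0 reads in all 3 Che-1 silencing-labelled libraries against 2537, 1790.4 and 1971 normalized counts in the control libraries. Group and sex therefore cannot be told apart for any gene below.

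Among the surface receptors, Tlr4, Tlr2 and Tlr6 rose on the spike-in scale in the Che-1 silencing-labelled libraries, while Tlr1 and Tlr5 did not pass the test. Tlr4, the receptor of bacterial lipopolysaccharide, had 1404, 1935 and 1451 normalized counts in replicates 1, 2 and 3 labelled Che-1 silencing, against 467, 438 and 539 in control replicates 1, 2 and 3. The groups did not overlap, and the log2 difference was 1.72 ± 0.56 (SE, n = 3 per group, limma adjusted p = 0.00608). Tlr2, which pairs with Tlr1 or Tlr6 to bind bacterial lipopeptides, had 428, 744 and 570.3 normalized counts in the Che-1 silencing-labelled libraries, against 216, 201 and 217 in the control libraries. Its log2 difference was 1.42 ± 0.54 (limma adjusted p = 0.0156), again without overlap.

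Tlr6 had 1212, 1906 and 484 normalized counts in the Che-1 silencing-labelled libraries, against 273, 211 and 243 in the control libraries. Replicate 3 labelled Che-1 silencing was far below the other two and still above every control library. The log2 difference, 2.10 ± 0.55 (limma adjusted p = 0.000831), was the largest of the 10. Tlr1, its neighbour on chromosome 5, had 1729.7, 2915 and 1939 normalized counts in the Che-1 silencing-labelled libraries, against 1311, 725 and 845 in the control libraries. Its log2 difference of 1.20 ± 0.58 did not pass the threshold (limma adjusted p = 0.0546). Tlr1 and Tlr6 are close copies: 15.4% of the 50-base windows of Tlr1 transcripts and 12.3% of those of Tlr6 occur in other genes, and 454 windows are shared between both. How the authors' counting divided such reads is not given in the sources used here, so the split between Tlr1 and Tlr6 is uncertain.

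Tlr5, the receptor of bacterial flagellin, was the lowest of the 10 genes, with 71.6, 118 and 61.7 normalized counts in the Che-1 silencing-labelled libraries against 49.2, 46.1 and 46.1 in the control libraries. The groups did not overlap, but the log2 difference of 0.76 ± 0.58 did not pass the threshold (limma adjusted p = 0.229).

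**Figure D1:**
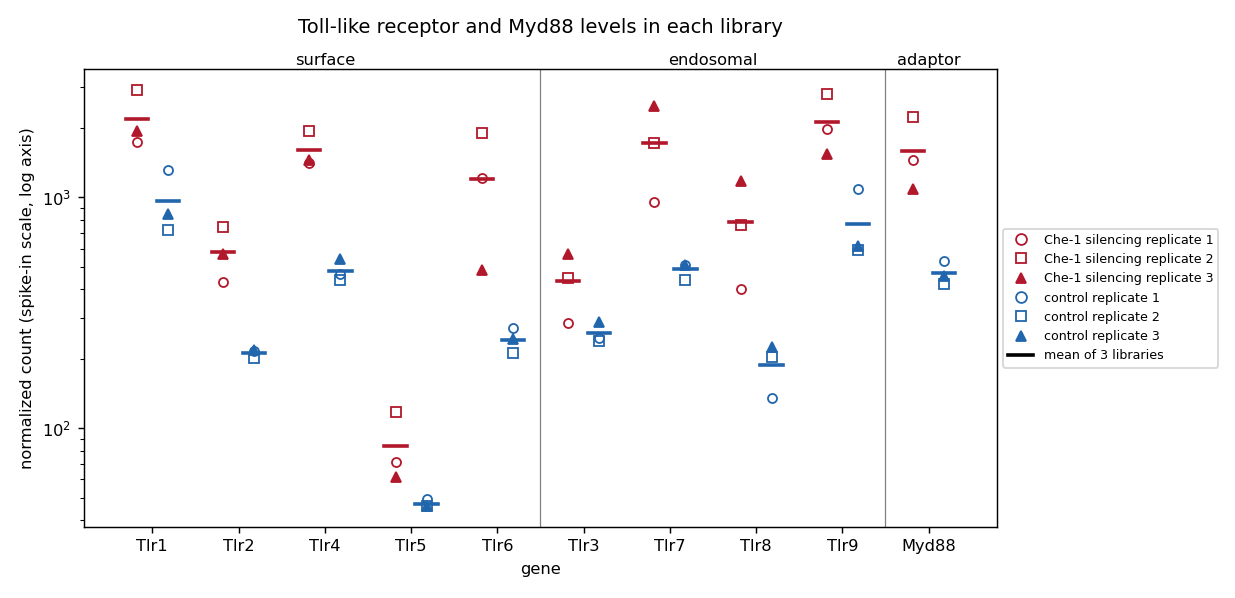
Normalized counts (spike-in scale, log axis) of the 5 surface receptors, the 4 endosomal receptors and Myd88 in each of the 6 libraries; symbols mark replicates and horizontal lines the mean of 3 libraries. The Che-1 silencing-labelled libraries lie above the control libraries for 9 of the 10 genes, Tlr3 being the exception.

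Among the endosomal receptors, Tlr7, Tlr8 and Tlr9 rose on the spike-in scale and Tlr3 did not pass the test. Tlr7, a receptor of single-stranded RNA, had 952, 1712 and 2493 normalized counts in replicates 1, 2 and 3 labelled Che-1 silencing, against 511, 440.4 and 512 in the control libraries. Its log2 difference was 1.71 ± 0.57 (limma adjusted p = 0.00627). Tlr8, which in humans binds breakdown products of single-stranded RNA, had 399.7, 756 and 1180.4 normalized counts in the Che-1 silencing-labelled libraries, against 135, 203 and 226 in the control libraries. Its log2 difference was 1.95 ± 0.54 (limma adjusted p = 0.00147). Both genes were highest in replicate 3 labelled Che-1 silencing and lay above every control library in all 3 libraries of that group. Both are on the X chromosome, whose 451 tested genes had a median relative log2 difference of 0.08, against 0.01 for 13094 autosomal genes. Such a median does not show how single X-linked genes behave, and the part of X linkage in the Tlr7 and Tlr8 values was not tested.

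Tlr9, the receptor of unmethylated CpG DNA, had the highest mean per length of the endosomal receptors in both groups. In replicate 3 labelled Che-1 silencing Tlr7 was above it. Tlr9 had 1985, 2811 and 1543 normalized counts in the Che-1 silencing-labelled libraries, against 1089.5, 593 and 617 in the control libraries. Here control replicate 1 was nearest to the Che-1 silencing-labelled libraries, without overlap, and the log2 difference was 1.48 ± 0.57 (limma adjusted p = 0.0185). Tlr3, the receptor of double-stranded RNA, had 286, 447 and 570.3 normalized counts in the Che-1 silencing-labelled libraries, against 246, 239.7 and 288 in the control libraries. It was the sole member whose groups overlapped, since replicate 1 labelled Che-1 silencing lay just below control replicate 3, and its log2 difference was 0.70 ± 0.53 (limma adjusted p = 0.231). An antisense gene, Gm45542, overlaps Tlr3 over 117 bases. The library kit marks strand, but the strand setting of the counting is not given in the sources used here.

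Myd88 had 1457, 2221 and 1087 normalized counts in the Che-1 silencing-labelled libraries, against 530.1, 422 and 458 in the control libraries. The lowest Che-1 silencing-labelled library, replicate 3, stood clear of the highest control library, and the log2 difference was 1.70 ± 0.56 (limma adjusted p = 0.0065).

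In all, limma called 7 of the 10 genes higher and 0 lower on the spike-in scale, and over the whole table it called 66.7% of 14604 genes higher and 0.746% lower. edgeR called the same number, 7, with 69.0% of all genes higher and 0.575% lower, and DESeq2 called 8, with 72.4% higher and 0.363% lower. By neither tool, nor at an unadjusted limma p under 0.05 (0.897% of all genes), was a member lower. In 9 of the 10 genes the lowest Che-1 silencing-labelled library exceeded the highest control library, as it did in 68.0% of all tested genes. The median log2 difference of the 10 genes was 1.59, against 1.54 for all tested genes, so the share called and the median were near those of the table at large. Without control replicate 2, or without control replicate 3, the number of calls was 2 of 10, Tlr6 and Tlr8, and it was also 2 with those libraries summed into 1. In that order, these fits called 3223 of 14667, 3536 of 14654 and 3451 of 14665 tested genes higher, so calls were fewer over the whole table too. Tlr9 also missed the threshold without replicate 1 or without replicate 2 labelled Che-1 silencing (limma adjusted p = 0.0636 and 0.0501), and Tlr1 passed it without control replicate 1 or without replicate 3 labelled Che-1 silencing (limma adjusted p = 0.0468 and 0.0197). In the authors' deposited table the fold of the group means ran between 1.69 for Tlr3 and 4.96 for Tlr6, and the adjusted p-values ran between 0.186 and 0.590, with 0.0773% of its 16825 genes with an adjusted p at or under 0.05. In bulk marrow, a change in the number of cells of a type and a change in RNA per cell cannot be told apart.

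On the relative scale, where each level is set against the median gene of its own library, none of the 10 genes differed past the threshold by limma or edgeR, and 1 did by DESeq2, Tlr5, which was lower (DESeq2 adjusted p = 0.0433, a test that called 12.2% of all genes lower). limma adjusted p-values ran between 0.112 and 0.807, and 1 gene had an unadjusted p under 0.05, against 35.1% of all tested genes. In the whole table the limma test called 0.0274% of genes on this scale. Log2 differences were positive for 5 genes and negative for 5, with a median of 0.06. Leaving out replicate 3 labelled Che-1 silencing brought 4 of the 10 past the threshold, Tlr6 as higher and Tlr1, Tlr3 and Tlr5 as lower, in a fit that called 27.8% of 14569 genes higher and 25.2% lower.

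**Figure D2:**
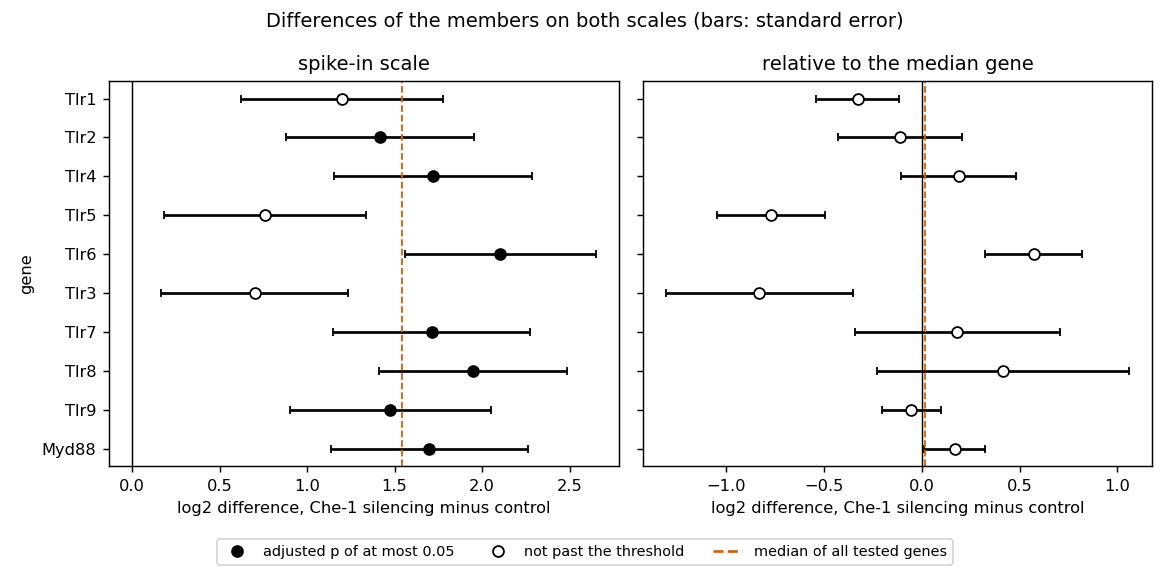
Log2 difference of the Che-1 silencing-labelled libraries minus the control libraries for each gene, with bars of 1 SE, on the spike-in scale (left) and relative to the median gene (right); filled points passed a limma adjusted p of 0.05 and the dashed line is the median of all tested genes. On the left the points lie around that median, between 0.70 for Tlr3 and 2.10 for Tlr6, and on the right around 0.

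Tlr5 was the sole member whose groups did not overlap on the relative scale. It lay at -3.47, -3.49 and -3.13 log2 units from the median gene in the Che-1 silencing-labelled libraries, against -2.95, -2.33 and -2.49 in the control libraries. Its difference was -0.77 ± 0.28 (limma unadjusted p = 0.0293, adjusted p = 0.112), and across all tested genes 40.2% showed no overlap on this scale and 19.7% lay below in this way. Tlr6 lay 0.59 and 0.52 above the median gene in replicates 1 and 2 labelled Che-1 silencing and at -0.18 in replicate 3, against -0.50, -0.16 and -0.12 in the control libraries. Its relative difference was 0.57 ± 0.25 (limma adjusted p = 0.153) with all 6 libraries and 0.82 without that replicate 3 (limma adjusted p = 0.00833). Tlr1 lay at 1.11, 1.13 and 1.82 in the Che-1 silencing-labelled libraries, against 1.76, 1.61 and 1.67 in the control libraries, and without that replicate its difference was -0.56 (limma adjusted p = 0.00546). The opposite signs of Tlr1 and Tlr6 concern the pair whose reads are partly shared.

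The endosomal receptors of RNA differed by replicate on this scale. Tlr7 lay 0.25, 0.36 and 2.18 above the median gene in replicates 1, 2 and 3 labelled Che-1 silencing, against 0.40, 0.90 and 0.95 in the control libraries. Tlr8 lay at -1.0, -0.81 and 1.10 in the Che-1 silencing-labelled libraries, against -1.52, -0.22 and -0.23 in the control libraries. In both genes replicate 3 labelled Che-1 silencing was the highest of all 6 libraries, while replicates 1 and 2 lay within or below the range of the control libraries. Tlr3 lay at -1.48 and -1.57 in replicates 1 and 2 labelled Che-1 silencing and at 0.06 in replicate 3, against -0.65, 0.02 and 0.12 in the control libraries. Its difference was -0.83 ± 0.48 with all libraries (limma adjusted p = 0.245) and -1.36 without that replicate 3 (limma adjusted p = 0.00881). Tlr9 varied least of the endosomal receptors, at 1.31, 1.08 and 1.49 in the Che-1 silencing-labelled libraries against 1.49, 1.33 and 1.22 in the control libraries, a difference of -0.05 ± 0.15 (limma adjusted p = 0.801).

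The remaining members had small relative differences. Tlr4 lay 0.81, 0.54 and 1.40 above the median gene in the Che-1 silencing-labelled libraries, against 0.27, 0.89 and 1.03 in the control libraries (difference 0.19 ± 0.29). Tlr2 lay at -0.91, -0.84 and 0.06 in the Che-1 silencing-labelled libraries, against -0.84, -0.23 and -0.28 in the control libraries (difference -0.11 ± 0.32). Myd88 lay at 0.86, 0.74 and 0.99 in the Che-1 silencing-labelled libraries against 0.45, 0.84 and 0.79 in the control libraries (difference 0.17 ± 0.15, limma adjusted p = 0.441). The groups of all 3 genes overlapped.

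**Figure D3:**
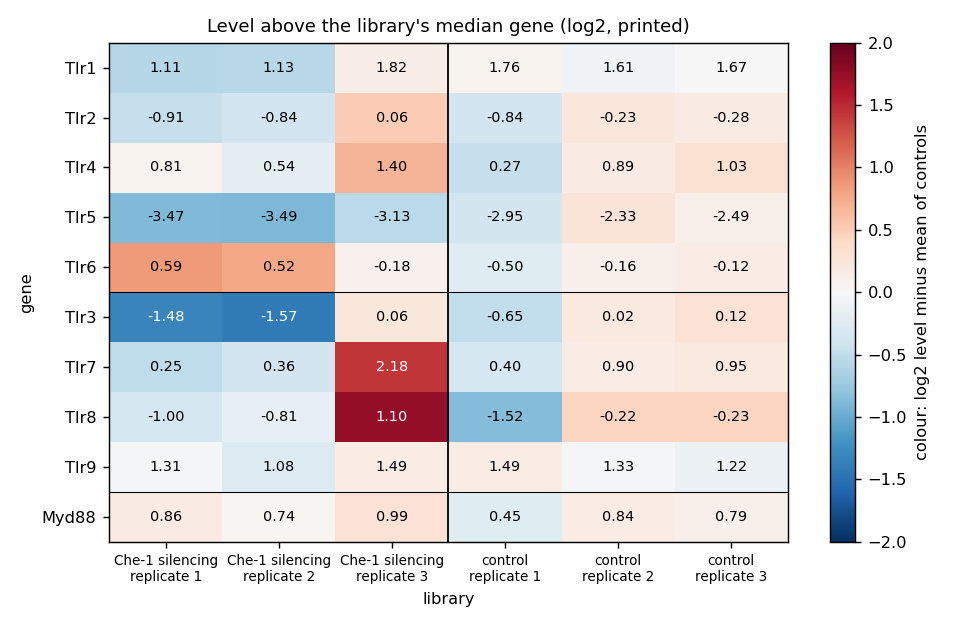
Log2 level of each gene above the median gene of the same library, printed in each cell, with colour showing the level minus the mean of the 3 control libraries. Tlr3, Tlr7 and Tlr8 stand out in replicate 3 labelled Che-1 silencing (0.06, 2.18 and 1.10) against replicates 1 and 2 of that group, and Tlr6 is higher in replicates 1 and 2 (0.59 and 0.52).

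Levels of different genes were compared as normalized counts per kilobase of merged exon. In the Che-1 silencing-labelled libraries the order was Myd88 (810.3 ± 295, SD, n = 3), Tlr1 (703 ± 203), Tlr9 (608 ± 185), Tlr7 (434 ± 194), Tlr6 (327 ± 193), Tlr4 (292 ± 53.8), Tlr8 (227 ± 114), Tlr2 (193 ± 52.5), Tlr3 (96.8 ± 31.7) and Tlr5 (20.4 ± 7.30). Only Tlr2 from Tlr3 and Tlr3 from Tlr5 were separated as neighbours in that order, and every other pair of neighbours overlapped between libraries. In the control libraries the order was Tlr1 (308 ± 99.2), Myd88 (239.8 ± 28.1), Tlr9 (220.4 ± 80.5), Tlr7 (123 ± 10.4), Tlr4 (88.0 ± 9.58), Tlr2 (70.2 ± 3.03), Tlr6 (65.8 ± 8.38), Tlr3 (57.4 ± 5.82), Tlr8 (54.7 ± 13.8) and Tlr5 (11.5 ± 0.436). There Tlr9, Tlr7, Tlr4 and Tlr8 were each above the next gene in every library. In both groups Tlr1, Myd88 and Tlr9 were the top of the order of means and Tlr5 the bottom. In replicate 3 labelled Che-1 silencing alone, Tlr7 (629) was above Tlr1 (622), Myd88 (554) and Tlr9 (444).

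The contrast between surface and endosomal receptors was taken within each library, so the spike-in scaling cancels. It follows receptor location, and whether it separates myeloid cells from B and dendritic cells was not tested. Over the 6 libraries, relative levels of Tlr3, Tlr7, Tlr8 and Tlr9 correlated with Tlr4 at Pearson r of 0.578, 0.845, 0.938 and 0.171. With Tlr6, also a surface receptor, r was -0.768, -0.409, -0.163 and -0.692. The 5 surface receptors summed to 1300.3, 2082 and 1223 normalized counts per kilobase in the Che-1 silencing-labelled libraries, against 664, 448 and 519 in the control libraries. The 4 endosomal receptors summed to 991, 1560.2 and 1544 in the Che-1 silencing-labelled libraries, against 536, 394 and 436 in the control libraries. Surface receptors thus made up 56.7%, 57.2% and 44.2% of the sum of the 9 receptors in the Che-1 silencing-labelled libraries, against 55.3%, 53.2% and 54.3% in the control libraries.

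The log2 ratio of endosomal to surface sums was -0.39, -0.42 and 0.34 in replicates 1, 2 and 3 labelled Che-1 silencing, against -0.31, -0.18 and -0.25 in control replicates 1, 2 and 3. The mean difference was 0.09 and the groups overlapped (exact two-sided permutation p = 1.0, n = 3 per group, where 0.1 is the smallest p possible). Replicates 1 and 2 labelled Che-1 silencing lay below every control library and replicate 3 above them, and without replicate 3 the difference was -0.16.

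Within the 9-receptor sum, the groups did not overlap for 2 of the 9 receptors, Tlr1 and Tlr5. A share over all genes does not exist for this measure. On the relative scale, a different measure, 40.2% of all tested genes showed no overlap, and there the groups of Tlr1 overlapped. Tlr1 supplied 24.2%, 25.6% and 22.5% of the sum in the Che-1 silencing-labelled libraries, against 35.01%, 27.6% and 28.4% in the control libraries. Tlr5 was also lower in each Che-1 silencing-labelled library, with 0.763%, 0.789% and 0.545% against 1.001%, 1.34% and 1.18% in the control libraries. Tlr6 supplied 14.4%, 14.2% and 4.76% in the Che-1 silencing-labelled libraries, against 6.18%, 6.82% and 6.91% in the control libraries, so replicate 3 fell on the other side of the controls from replicates 1 and 2. Tlr7 supplied 10.5%, 11.9% and 22.7% in the Che-1 silencing-labelled libraries, against 10.8%, 13.2% and 13.5% in the control libraries, and Tlr8 supplied 5.08%, 6.05% and 12.4% in the Che-1 silencing-labelled libraries against 3.27%, 7.01% and 6.88% in the control libraries. No test was run on these shares, and with 3 against 3 libraries no exact test of a single share can go below 0.1.

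**Figure D4:**
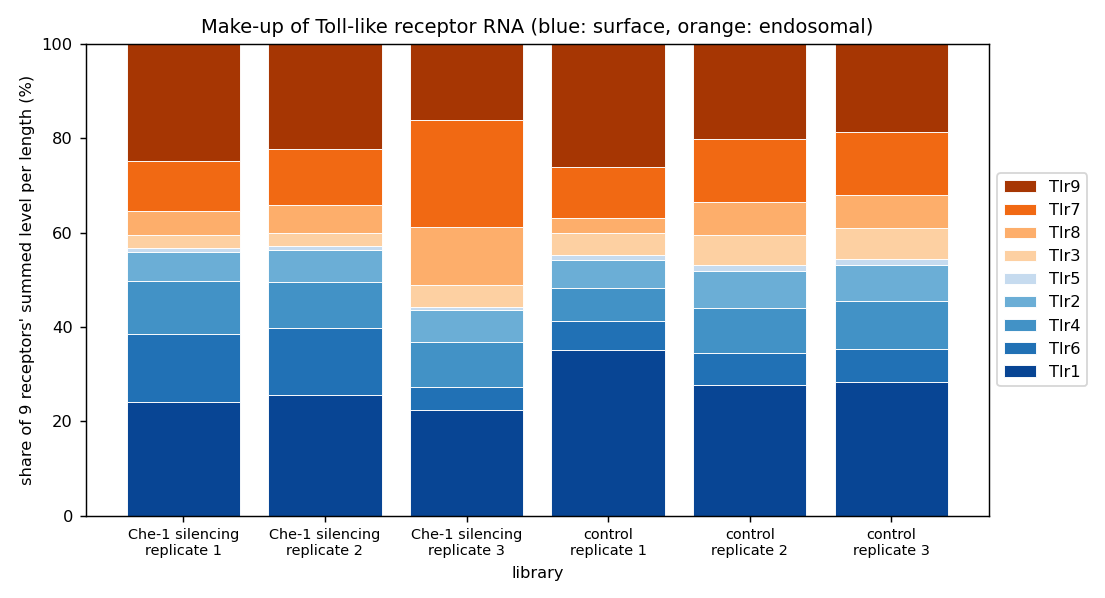
Share of each receptor in the summed level per length of the 9 receptors, one bar per library, with surface receptors in blue and endosomal receptors in orange. Surface receptors make up between 53.2% and 57.2% in every library except replicate 3 labelled Che-1 silencing, where they make up 44.2% and Tlr7 makes up 22.7%.

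Against Tlr4, a single ratio per library compared Tlr2, Tlr3, Tlr5, Tlr6, Tlr7, Tlr9 and Myd88. The ratios of Tlr1 and Tlr8 to Tlr4 were not computed, so whether their groups overlap in this measure is not given. All of these ratios share Tlr4 as the denominator and are not independent of each other. Per length, the log2 ratio of Tlr3 to Tlr4 was -2.01, -1.83 and -1.06 in the Che-1 silencing-labelled libraries, against -0.64, -0.58 and -0.62 in the control libraries. That of Tlr5 to Tlr4 was -3.88, -3.62 and -4.14 in the Che-1 silencing-labelled libraries, against -2.83, -2.83 and -3.13 in the control libraries. Both ratios were lower in every Che-1 silencing-labelled library than in any control library, as was that of Tlr2 to Tlr4. These ratios were not tested, and the share of all genes without overlap in a ratio to Tlr4 was not computed. On the relative scale, a different measure, the groups did not overlap in 40.2% of all tested genes. The ratios of Tlr6, Tlr7, Tlr9 and Myd88 to Tlr4 overlapped between the groups. The log2 ratio of Tlr8 to Tlr7, also X-linked, was -1.04, -0.97 and -0.87 in the Che-1 silencing-labelled libraries, against -1.72, -0.91 and -0.97 in the control libraries, where control replicate 1 stood apart.

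The genes whose relative levels over the 6 libraries were most like 3 of the members were listed among the 7301 tested genes whose mean reached the median level. For Tlr4 they were Slc9a3r1 (Pearson r = 0.985), Npc2 (0.983) and Chm (0.982), and 124 genes had an r above 0.9. For Tlr9 they were Ergic3 (0.983), Fam76a (0.951) and Yipf4 (0.945), with 8 genes above 0.9, and for Myd88 Glud1 (0.994), Serpinb6b (0.991) and Rab32 (0.985), with 111 above 0.9. These are descriptions over 6 libraries that include both groups.

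The other mouse Toll-like receptors were Tlr11 and Tlr12, endosomal receptors of a parasite profilin, and Tlr13, an endosomal receptor of bacterial ribosomal RNA. Of these 3, Tlr12 and Tlr13 rose on the spike-in scale, on which 66.7% of all tested genes were called higher. Tlr12 had 458, 759 and 452 normalized counts in the Che-1 silencing-labelled libraries, against 117, 122 and 132 in the control libraries (log2 difference 2.12, limma adjusted p = 0.000576). Tlr13, which is X-linked like Tlr7 and Tlr8, had 761, 1486 and 1313 in the Che-1 silencing-labelled libraries, against 275, 359.6 and 399 in the control libraries (1.74, limma adjusted p = 0.00473). Tlr11 had 92.5, 146 and 295 in the Che-1 silencing-labelled libraries, against 219, 183 and 223 in the control libraries. Without control replicate 2 the number called higher was 1, in a fit that called 3223 of 14667 tested genes higher. On the relative scale limma, edgeR and DESeq2 called 0 of the 3, and Tlr11 was lower at an unadjusted p under 0.05, as were 17.3% of all tested genes. Without replicate 3 labelled Che-1 silencing limma called 1 of the 3 lower on this scale, in a fit that called 25.2% of all genes lower.

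Downstream of the receptors, 19 of 24 other adaptors and proximal kinases and transcription factors rose on the spike-in scale and 0 fell, against 66.7% of all tested genes called higher, and their median log2 difference was 1.55 against 1.54 for all tested genes. Irf7, the factor that drives interferon genes below endosomal receptors, had 1675, 2802 and 1636 normalized counts in the Che-1 silencing-labelled libraries, against 376, 424 and 514 in the control libraries (2.18, limma adjusted p = 0.000835). Tirap, which bridges Tlr2 and Tlr4 to Myd88, had 1098, 1594 and 425 in the Che-1 silencing-labelled libraries against 279.7, 204 and 209 in the control libraries (1.98, limma adjusted p = 0.00139). Ticam1, the adaptor of Tlr3, had 777, 1047 and 435 in the Che-1 silencing-labelled libraries against 257, 189.9 and 214 in the control libraries (1.69, limma adjusted p = 0.00487), and Ticam2, which links Tlr4 to Ticam1, differed by 1.76 (limma adjusted p = 0.00321). The kinase genes Irak2 and Ikbkb and the inhibitory family member Irak3 did not pass, with log2 differences of 0.70, 1.04 and 0.05. Without control replicate 2 this list had 2 calls, without control replicate 3 it had 3, and without replicate 1 labelled Che-1 silencing it had 7. In that order, these fits called 3223 of 14667, 3536 of 14654 and 5649 of 14606 tested genes higher.

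Of 16 co-receptors and trafficking factors with counts, 13 rose on the spike-in scale and 0 fell, against 66.7% of all tested genes called higher, and their median log2 difference was 1.76 against 1.54 for all tested genes. Ly96, the partner that holds lipopolysaccharide for Tlr4, had 302, 502 and 214 normalized counts in the Che-1 silencing-labelled libraries, against 60.9, 55.5 and 67.4 in the control libraries (2.37, limma adjusted p = 0.000155). The endosomal proteases Ctss, Lgmn and Ctsl, which cleave the nucleic acid receptors, differed by 2.43, 2.38 and 2.16 (limma adjusted p between 0.000307 and 0.00107). Ctss stood at 22971, 37413 and 19383 normalized counts in the Che-1 silencing-labelled libraries, against 4612, 4526 and 5046 in the control libraries. On the relative scale 6 of the 16 lay above all control libraries in every Che-1 silencing-labelled library, against 20.5% of all tested genes, and limma and edgeR called 0. DESeq2 called 5 higher, against 2189 of all 14604 tested genes, and 5 were higher at an unadjusted limma p under 0.05, against 17.8% of all tested genes. Without replicate 3 labelled Che-1 silencing limma called 5 higher and 1 lower on this scale, in a fit that called 27.8% of all genes higher and 25.2% lower. Without control replicate 2 or 3, 6 of the 16 were called on the spike-in scale, in fits that called 3223 of 14667 and 3536 of 14654 tested genes higher.

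Of 15 genes that Toll-like receptor signalling is known to induce, 13 rose on the spike-in scale and 0 fell, against 66.7% of all tested genes called higher. Their median log2 difference was 1.92, against 1.54 for all tested genes. The largest differences were in secreted factors. Il10, an inhibitory cytokine, had 587, 783 and 250.5 normalized counts in the Che-1 silencing-labelled libraries, against 9.36, 20.7 and 18 in the control libraries (4.91, limma adjusted p = 5.79e-16). The chemokine gene Ccl3 had 328, 497 and 208 in the Che-1 silencing-labelled libraries, against 31.6, 16.9 and 20.9 in the control libraries (3.80, limma adjusted p = 1.45e-09), and its relative Ccl4 differed by 3.21 (limma adjusted p = 1.18e-06). Cxcl10, an interferon-induced chemokine, had 633, 1260.5 and 782 in the Che-1 silencing-labelled libraries, against 73.7, 104 and 127 in the control libraries (3.09, limma adjusted p = 3.78e-07).

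On the relative scale 8 of the 15 response genes lay above all control libraries in every Che-1 silencing-labelled library, against 20.5% of all tested genes, and limma and edgeR called 0. Limma called 1 higher with a pseudocount of 0.1, with no minimum mean or without trend. Without control replicate 1 it called 2 higher, against 26 of 14624 tested genes. Without replicate 3 labelled Che-1 silencing it called 6 higher and 2 lower, in a fit that called 27.8% of all genes higher and 25.2% lower. DESeq2 called 6 higher and 1 lower, against 2189 higher among all 14604 tested genes and 12.2% lower. The relative log2 difference was 3.38 ± 0.50 for Il10 (limma adjusted p = 0.0723) and 2.27 ± 0.20 for Ccl3 (limma adjusted p = 0.0535), and 7 genes were higher at an unadjusted p under 0.05, against 17.8% of all tested genes. Nos2, which encodes the inducible nitric oxide synthase, had 85.1, 93.6 and 30.8 normalized counts in the Che-1 silencing-labelled libraries against 78.4, 128 and 133 in the control libraries, and the groups overlapped. On the relative scale it lay at -3.22, -3.81 and -4.11 log2 units from the median gene in the Che-1 silencing-labelled libraries, below -2.29, -0.88 and -0.98 in the control libraries (difference -2.33, limma adjusted p = 0.0730). Without control replicate 2 or 3, 7 of the 15 were called on the spike-in scale, in fits that called 3223 of 14667 and 3536 of 14654 tested genes higher.

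With all 6 libraries, counts of rises among markers of the cells that carry these receptors are read against the 66.7% of all tested genes called higher on the spike-in scale. Of 9 B cell markers with counts, 7 rose on the spike-in scale. Their summed level ran between 50588 and 211997 normalized counts in the Che-1 silencing-labelled libraries, against 23079 to 46999 in the control libraries. Of 11 monocyte and macrophage markers 7 rose, with sums between 50896 and 92854 in the Che-1 silencing-labelled libraries against 17367 to 20762 in the control libraries. Of 11 neutrophil markers limma called 0 on the spike-in scale (0 at an unadjusted p under 0.05, 0 by edgeR and 1 as higher by DESeq2), with sums between 3208 and 19872 normalized counts in the Che-1 silencing-labelled libraries against 6494 to 8969 in the control libraries. Of 7 conventional dendritic cell markers 2 rose and 1 fell (Cd209a), and of 7 plasmacytoid dendritic cell markers 4 rose. Of 7 plasma cell markers 5 rose, of 8 T and killer cell markers 5 rose, and of 5 red cell precursor markers limma, edgeR and DESeq2 called 0 on the spike-in scale, where 0 had an unadjusted p under 0.05. Limma and edgeR called 0 neutrophil, 0 conventional dendritic cell and 0 red cell precursor markers on the relative scale. There the 11 neutrophil markers had a median log2 difference of -1.49, 2 were lower at an unadjusted limma p under 0.05 and DESeq2 called 1 lower. The 5 red cell precursor markers had a median of -2.05, all 5 were lower at an unadjusted limma p under 0.05 and DESeq2 called 4 lower. The 7 conventional dendritic cell markers had a median of -1.13, 4 were lower at that p and DESeq2 called 2 lower. Of all tested genes, 17.3% were lower at an unadjusted limma p under 0.05 and DESeq2 called 12.2% lower. Without replicate 3 labelled Che-1 silencing limma called lower on the relative scale 9 of 11 neutrophil and 5 of 5 red cell precursor markers. It also called 4 of 7 conventional dendritic cell markers lower, in a fit that called 27.8% of all genes higher and 25.2% lower. The same fit called 5 of 8 T and killer cell markers lower and 0 higher. Of 11 monocyte and macrophage markers it called 4 lower and 1 higher, and of 9 B cell markers 1 lower and 4 higher. Of 7 plasma cell markers 3 were lower and 2 higher, and of 7 plasmacytoid dendritic cell markers 3 were lower and 3 higher. Without control replicate 2 or without control replicate 3, calls as higher numbered 1 for B cell markers, 3 for monocyte and macrophage markers, 2 for plasma cell markers, 4 for plasmacytoid and 0 for conventional dendritic cell markers, and 1 for T and killer cell markers. Those fits called 3223 of 14667 and 3536 of 14654 tested genes higher. Without replicate 1 labelled Che-1 silencing calls numbered 1 for B cell markers and 2 for T and killer cell markers, and without replicate 2 of that label 3 and 2. Of all tested genes, 5649 of 14606 and 6042 of 14414 were called higher there. Without control replicate 1 the number was 1 for conventional dendritic cell markers, in a fit that called 9723 of 14624 tested genes higher. No marker in these lists was at 0 in any library.

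The replicate pattern of Tlr7, Tlr8 and Tlr6 was set beside these markers. Against their control mean, neutrophil markers lay at medians of -3.41, -1.62 and 0.53 log2 units on the relative scale in replicates 1, 2 and 3 labelled Che-1 silencing, and monocyte and macrophage markers at -0.43, -0.01 and 0.51. B cell markers lay at 0.18, 0.30 and -0.33, and plasmacytoid dendritic cell markers at 0.66, 0.55 and 0.08. Conventional dendritic cell markers lay at -1.71, -1.28 and -0.12, and plasma cell markers at -0.05, -0.12 and 0.61. T and killer cell markers lay at -0.57, -0.74 and 0.20, and red cell precursor markers at -3.22, -1.97 and -0.99. Endosomal receptors lay at -0.43, -0.33 and 0.83 and surface receptors at -0.46, -0.39 and 0.14. In control replicates 1, 2 and 3 the neutrophil markers lay at -0.77, 0.38 and 0.38, and the endosomal receptors at -0.42, 0.17 and 0.25. The part of cell type make-up in the receptor values was not tested.

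**Figure D5:**
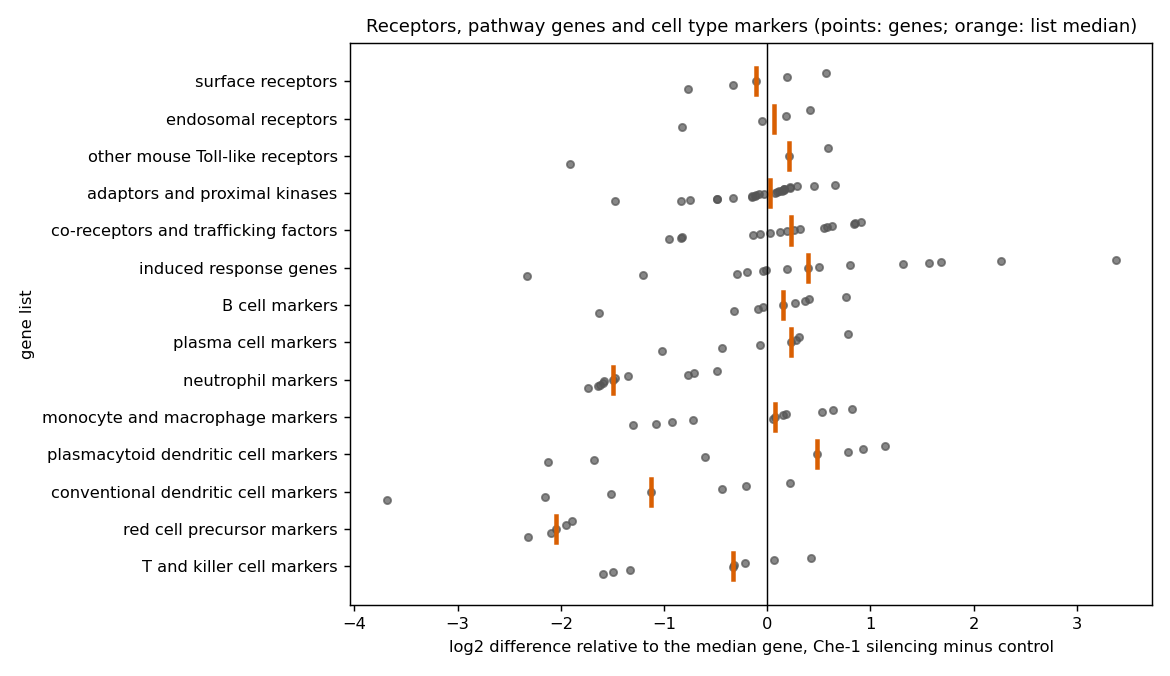
Relative log2 difference, Che-1 silencing-labelled libraries minus control libraries, of each gene (grey points) in 14 lists, with the list median in orange. Surface and endosomal receptors have medians of -0.11 and 0.06 and the induced response genes 0.39. The neutrophil, conventional dendritic cell and red cell precursor markers have medians of -1.49, -1.13 and -2.05.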

How the data were processed

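RNA of mouse bone marrow was sequenced in 6 libraries, 3 per group, from total RNA depleted of ribosomal RNA with a stranded kit, per the labels' protocols. The submitters' processing notes name TopHat, Cufflinks, Cuffdiff, HTSeq and build mm9, with no versions. The authors deposited the raw count of each ERCC spike-in in every library. They also deposited a gene table that holds, per the file headers, group means of counts divided by spike-in size factors (a signal), their ratio (fold), its log2 value and p-values.

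Counts per library were solved from the group means as 3 whole counts per mean, with size factors from the 72 spike-in table rows without a 0, of which 70 are spike-ins and 2 are HTSeq summary rows. In this way 17076 of 17173 genes (99.4%) were recovered. On simulated means 987 of 992 in the Che-1 silencing group and 991 of 994 in the control group came back correctly and 0 wrongly. The summary rows held between 0.0434% and 0.221% of the reads in the spike-in table.

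limma 3.58.1 (R 4.3.3, eBayes with trend, Benjamini-Hochberg adjustment, threshold 0.05) was run on log2(normalized count + 1) of the 14604 genes with a mean of at least 10, with a group term. It was also run after each library's median gene was set equal. Log2 differences on this scale understate changes of low genes. edgeR 4.0.16 and DESeq2 1.42.0 on the recovered counts were alternatives. On the spike-in scale the main limma fit pooled the spread fully over genes of similar level. Its p-values there, also very small ones, thus do not measure a gene's own spread among its libraries. The members and all lists were chosen with earlier results of these data known. Named were all 10 members, up to 4 genes per list by lowest p on each scale (all genes of lists with 8 or fewer), the 3 genes most like Tlr4, Tlr9 and Myd88, and Aatf; Xist, Ddx3y and Gm45542 were named after their values were seen. Gene lengths, shared windows and promoters came from the reference annotation. The list entries Il6, Cxcl2, Ifnb1, Jchain, Ly6g and Adgre1 were not analysed here.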

Additional observations from a re-analysis of the deposited data

How the results depend on the processing

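On the spike-in scale 7 of the 10 genes were called, and 7 or 8 were called under other pseudocounts, minimum means, limma without trend, edgeR and DESeq2. With control replicates 2 and 3 summed into 1 the count was 2, and with each library left out in turn it ran between 2 and 8. Over all tested genes the summed setting called 3451 of 14665 higher. With each library left out in turn, between 3223 of 14667 and 11012 of 14569 tested genes were called higher. Tlr6 and Tlr8 were called in all 16 settings, Tlr9 in 10, Tlr1 in 4, and Tlr3 and Tlr5 in 0. The cause of the lost calls was not tested. The deviations of same-numbered libraries from their group means correlated at 0.167, -0.151 and 0.182, and those of differently numbered libraries between -0.206 and 0.184. Replicate 3 labelled Che-1 silencing and control replicate 1 stand apart in their groups. These correlations therefore cannot decide whether the replicate numbers pair the libraries. With the replicate block 5 members were called on the spike-in scale and 0 on the relative scale. On the spike-in scale that fit called 6719 of 14604 tested genes higher.

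On the relative scale 0 of the 10 genes were called, 1 by DESeq2 and between 0 and 4 with each library left out in turn. With each library left out in turn, the relative differences of 5 genes changed sign and ran between -0.42 and 0.059 for Tlr2, -0.053 and 0.37 for Tlr4, -0.44 and 0.52 for Tlr7, -0.25 and 0.80 for Tlr8, and -0.15 and 0.050 for Tlr9. With no minimum mean that of Tlr9 was 0.015. The cause was not tested. The difference in the log2 ratio of endosomal to surface sums, 0.09, was 0.03 with levels not divided by length and 0.02 with coding length, which was chosen after seeing the data, and ran between -0.16 and 0.22 with each library left out in turn. The 3 libraries per group limit the precision of every value here.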
